A study of Mus musculus with 6 samples.

Results

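Enzymes that metabolise drugs, pollutants and inhaled odorants were followed here as a set of 101 genes, out of 18193 genes measured on Affymetrix arrays of mouse retina. The set holds every gene of cytochrome P450 families CYP1 to CYP4, the glucuronosyltransferases UGT1A, UGT2A and UGT2B, the soluble glutathione S-transferases, the flavin monooxygenases (FMO) and the sulfotransferases (SULT) that has a probe set naming it alone. Members were chosen by gene symbol and not by their values. They comprise 3 Cyp1, 35 Cyp2, 5 Cyp3, 13 Cyp4, 8 Ugt2, 20 Gst, 4 Fmo and 13 Sult genes. No Ugt1a gene had a probe set of its own. A further 9 probe sets name several genes, at least 1 of them of these families, and were left out. Of these 9, 6 were over 2 log2 units higher in the library labelled knockout replicate 3 than elsewhere, so the counts below leave such signal aside.

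The retinas, from the strain BALB/c AJ, were taken on post-natal day 40 and had been separated from the pigment epithelium. The wild-type group (wt/wt) has 3 arrays and the group homozygous for the Nxnl2 knockout (ko/ko) has 3 arrays. Nxnl2 encodes a thioredoxin-like protein of photoreceptors, and the labels name no other allele, agent or batch, nor the sex, the number of animals behind a sample or how the knockout was made. Nothing in the labels says that replicates were separate animals, so the p-values reflect sample-to-sample spread that could be purely technical.

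Cells clear foreign molecules in steps. P450 and FMO enzymes of the endoplasmic reticulum add or expose an oxygen group, and transferases then attach glucuronate, glutathione or sulfate so that transporters can expel the product. The liver is the main site, but the mucosa of the nose carries its own rich set, best known from the supporting (sustentacular) cells and glands around the olfactory neurons, where these enzymes are thought to protect tissue and to end odour signals. In the retina, glutathione transferases are the most studied members.

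The third library of the knockout group goes against its labels, and each result is therefore given with and without it. Nxnl2 read 11.38, 11.45 and 11.42 (log2) in wild type, 3.78 and 3.73 in knockout replicates 1 and 2, against 9.21 in the library labelled knockout replicate 3. That array correlated with the others at 0.848 to 0.853 over probe sets, against 0.994 to 0.996 among the other 5. There, 10 of 10 measured rod markers fell short of the other 5 arrays by over 2 log2 units, and their summed level was 7.48 against 16.65 to 16.77. Of 11 markers of olfactory neurons, 10 lay as far above, with a summed level of 15.16 against 11.34 to 11.52. Of 11 markers of nasal glands and airway, 10 lay as far above, at 16.25 against 7.62 to 7.79. The list of 9 sustentacular markers holds the members Cyp2g1 and Cyp1a2 and the partner gene Cbr2, so it is given without them. Of the other 6, 4 lay above the limit and 1 went the other way, at -1.51. Their summed level was 14.01 against 11.32 to 11.60. Liver markers did not follow: 1 of 12 lay above the limit, at a summed level of 8.18 against 7.73 to 7.81, and albumin (Alb) read 3.45 against 3.39 ± 0.17 (SD, n = 5). The retina label of this array is thus not borne out by its photoreceptor markers. The part of these cell types in the results below was not tested, and in bulk RNA fewer cells of a type and less RNA per cell cannot be told apart.

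In the library labelled knockout replicate 3, 29 of the 101 members exceeded the mean of the other 5 arrays by over 2 log2 units, and 0 fell short of it by as much. A difference of 2 log2 units is 4-fold. Over all genes, 7.44% lay as far above and 4.49% as far below. Members above by more than 5 log2 units numbered 14, where the share over all genes was 0.879%. This library is single and was set apart by its values in earlier work on these data, so these counts describe it and carry no test. The median difference was 0.20 over members and -0.05 over all genes. Within 1 log2 unit of the other arrays lay 61 members. Further above lay 37, against 15.8% of all genes, and further below lay 3, against 11.5%. On all 5 other arrays, 59 members read below the brightest probe set for Bacillus transcripts, used below as a rough floor. For such genes a difference near 0 can mean that no signal was detected on either side. Each of the other 5 arrays, set against the remaining 4, had 0 members more than 1 log2 unit away in either direction.

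**Figure D1:**
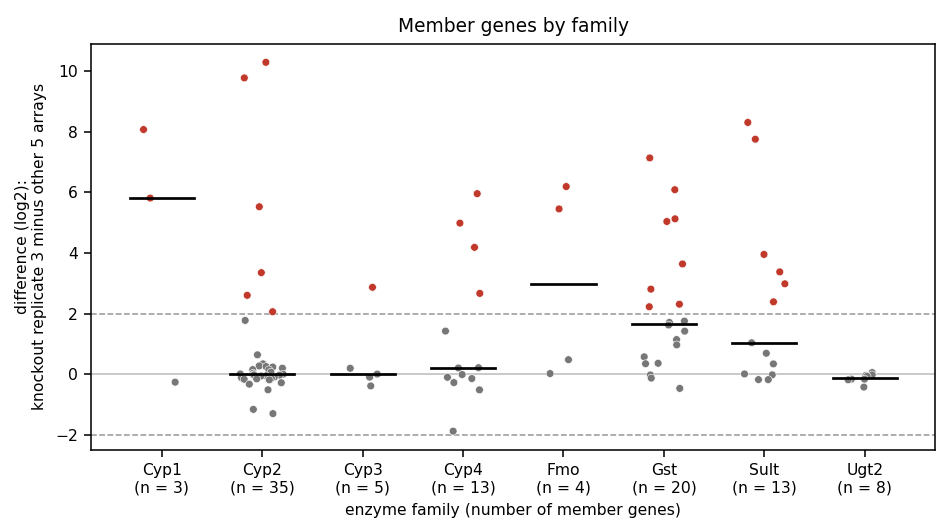
Difference between the library labelled knockout replicate 3 and the mean of the other 5 arrays (vertical axis, log2) for each of the 101 member genes, by family. Each point is 1 gene, the black bar is the family median, and the dashed lines mark 2 log2 units. Red points lie above that limit, as 29 genes do, none of them a Ugt2 member.

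The most extreme member was Cyp2f2, the P450 of airway and olfactory epithelium that activates naphthalene. It read 3.18, 3.09 and 3.24 in wild type, 2.97 and 3.20 in knockout replicates 1 and 2, against 13.42 in the library labelled knockout replicate 3. Cyp2g1, the P450 that marks olfactory mucosa, read 3.17, 3.20 and 3.20 in wild type, 3.39 and 3.16 in knockout replicates 1 and 2, and 13.00 in that array. For both genes the 5 retina values lay together near the bottom of the scale, and the sixth stood far outside them. A rough floor was taken from the brightest probe set for Bacillus transcripts on each array (4.13 to 4.60), and the 5 other values of both genes lay below it. Counted from that floor, Cyp2f2 was at least 545-fold and Cyp2g1 at least 406-fold higher.

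Both Cyp1a genes were high in the library labelled knockout replicate 3, while their relative Cyp1b1 was not. Cyp1a2, which demethylates caffeine and is made in liver and olfactory mucosa, read 3.94, 3.64 and 3.76 in wild type, 3.98 and 4.003 in knockout replicates 1 and 2, against 11.93 in the library labelled knockout replicate 3 (at least 194-fold). Cyp1a1, the classical target of the aryl hydrocarbon receptor (AhR), read 3.55, 3.55 and 3.61, then 3.37 and 3.37, then 9.30 (at least 31.3-fold). Neither gene rose above the floor in any of the 5 retina arrays. Cyp1b1, mutated in congenital glaucoma of humans, read 6.71, 6.69 and 6.81, then 6.72 and 6.67, then 6.45, and lay above the floor in every array. Among the sensors of foreign molecules, Ahr itself lay at -1.16 in that array. Ahrr, the repressor of AhR, read 3.43 there against 7.92 ± 0.44 (SD, n = 5), a difference of -4.49.

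Promoter windows show where the letters of known response elements lie in the genes that were high in that array. Windows of the 250 bases before each gene's start were taken from RefSeq (GRCm38.p6) for the 83 members that matched by gene identifier, which gave 101 windows. The 5 windows below belong to both Cyp1a genes, to the member with the largest difference, and to a glutathione transferase and a sulfotransferase gene that hold a match. Each is written 5′ to 3′ on the gene's strand, in lower case, with matches in capitals, GCGTG (the AhR element core) in Cyp1a1 and Sult1d1 and TGACNNNGC (the antioxidant response element core) in Gsta3. Both strands were searched, so CACGC is a match to GCGTG on the other strand.
Cyp1a1, chr9:57697363-57697612, plus strand: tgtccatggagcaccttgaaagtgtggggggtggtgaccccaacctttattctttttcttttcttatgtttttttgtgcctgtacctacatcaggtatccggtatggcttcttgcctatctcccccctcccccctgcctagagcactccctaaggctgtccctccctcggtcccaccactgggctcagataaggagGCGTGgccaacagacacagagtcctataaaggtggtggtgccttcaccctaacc
Cyp1a2, chr9:57683656-57683905, minus strand: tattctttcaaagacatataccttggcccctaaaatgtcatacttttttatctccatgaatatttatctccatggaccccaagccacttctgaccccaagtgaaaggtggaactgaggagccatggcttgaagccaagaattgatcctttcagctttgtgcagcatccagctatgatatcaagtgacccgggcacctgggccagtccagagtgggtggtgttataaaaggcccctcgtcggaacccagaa
Cyp2f2, chr7:27119705-27119954, plus strand: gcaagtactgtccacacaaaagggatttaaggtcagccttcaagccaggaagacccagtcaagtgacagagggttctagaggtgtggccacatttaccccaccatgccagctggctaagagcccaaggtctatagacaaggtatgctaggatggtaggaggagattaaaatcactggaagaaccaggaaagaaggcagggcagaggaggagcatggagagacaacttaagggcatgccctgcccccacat
Gsta3, chr1:21240335-21240584, plus strand: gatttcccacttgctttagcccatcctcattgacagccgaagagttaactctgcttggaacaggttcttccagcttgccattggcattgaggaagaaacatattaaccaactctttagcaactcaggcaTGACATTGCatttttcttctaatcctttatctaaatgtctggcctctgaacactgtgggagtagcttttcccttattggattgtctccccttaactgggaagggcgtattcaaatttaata
Sult1d1, chr5:87569007-87569256, minus strand: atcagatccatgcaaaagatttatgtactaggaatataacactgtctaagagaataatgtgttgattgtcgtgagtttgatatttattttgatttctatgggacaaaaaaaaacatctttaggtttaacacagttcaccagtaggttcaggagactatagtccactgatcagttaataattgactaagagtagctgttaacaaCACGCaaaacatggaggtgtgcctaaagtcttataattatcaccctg
The match in Cyp1a1 begins 54 bases before the start, that in Gsta3 at 121 bases and that in Sult1d1 at 47 bases, while GCGTG is not in the Cyp1a2 and Cyp2f2 windows. Over the 28 windows of members past the 2-unit limit, GCGTG was in 28.6%, against 16.4% of the 73 windows of other members and 28.2% of all 32851 windows. TGACNNNGC was in 3.57%, 5.48% and 10.2% of these. The EBF palindrome, bound by factors of olfactory neurons, was in none of the member windows and in 0.779% of all windows, and the HNF1 palindrome, bound in liver, was in none and in 0.0091%. The shorter motifs can overlap, and did so in the Gstm5 window, where TGACNNNGC begins 42 and GCGTG 38 bases before the start. A match is a run of letters and not a shown binding site.

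The remaining P450 genes past the limit came from several subfamilies. Cyp2e1, the ethanol-inducible P450, read 3.42, 3.52 and 3.61 in wild type, 3.69 and 3.75 in knockout replicates 1 and 2, against 9.12 in the library labelled knockout replicate 3. Cyp2b10, the target gene of the constitutive androstane receptor, read 9.14 against 5.79 ± 0.12 (SD, n = 5), Cyp2j6 read 7.55 against 4.95 ± 0.10, and Cyp2s1, a P450 found mainly outside the liver, read 7.90 against 5.84 ± 0.18. For Cyp2b10 and Cyp2j6 the other probe sets differed by more, at 4.46 and 4.44 for the first gene and 4.35 for the second, against 3.35 and 2.60. The 4-family, whose members mostly hydroxylate fatty acids, had 4 of 13 past the limit. Cyp4a12a, a fatty acid hydroxylase best known from kidney, read 3.27, 3.28 and 3.60, then 3.33 and 3.29, then 9.31. Cyp4b1, the lung P450 that activates plant furans, read 9.28 against 4.30 ± 0.09 (SD, n = 5), and Cyp4f15 read 7.97 against 3.79 ± 0.14. Cyp4v3, the counterpart of the human gene mutated in Bietti crystalline retinal dystrophy, read 6.57, 6.56 and 6.45 in wild type, 6.49 and 6.55 in knockout replicates 1 and 2, and 9.19 there. It lay above the floor in retina as well, unlike Cyp4a12a and Cyp4f15. Of the Cyp3 genes, Cyp3a13 read 5.65 against 2.79 ± 0.14 (SD, n = 5), and the other 4 lay between -0.39 and 0.19.

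The Cyp2c and Cyp2d subfamilies had no gene past the limit in either direction, while Cyp1a2, Cyp2e1, Cyp2b10 and Cyp3a13, P450 genes that liver also expresses, were past it. All 11 measured Cyp2c genes lay between -0.13 and 0.27, and 8 Cyp2d genes lay between -1.16 and 0.07. On all 5 retina arrays, however, 9 of these Cyp2c and 6 of these Cyp2d genes lay below the floor. In the library labelled knockout replicate 3, 2 Cyp2c genes and 1 Cyp2d gene lay above it, so most of these differences are between values near the floor. The lowest of the Cyp2d genes was Cyp2d22, at 6.01 against 7.17 ± 0.09 (SD, n = 5), and its other probe set gave -1.02. The 3 members lower by over 1 log2 unit were Cyp4f41-ps, a pseudogene (-1.88), Cyp2j13 (-1.30) and Cyp2d22. All 8 Ugt2 genes of the set lay below the floor on each of the 5 retina arrays and in the library labelled knockout replicate 3. Their differences ran from -0.43 to 0.05. Only 1 of them, Ugt2a3, is a Ugt2a gene, so Ugt2a genes without a probe set of their own are not covered.

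**Figure D2:**
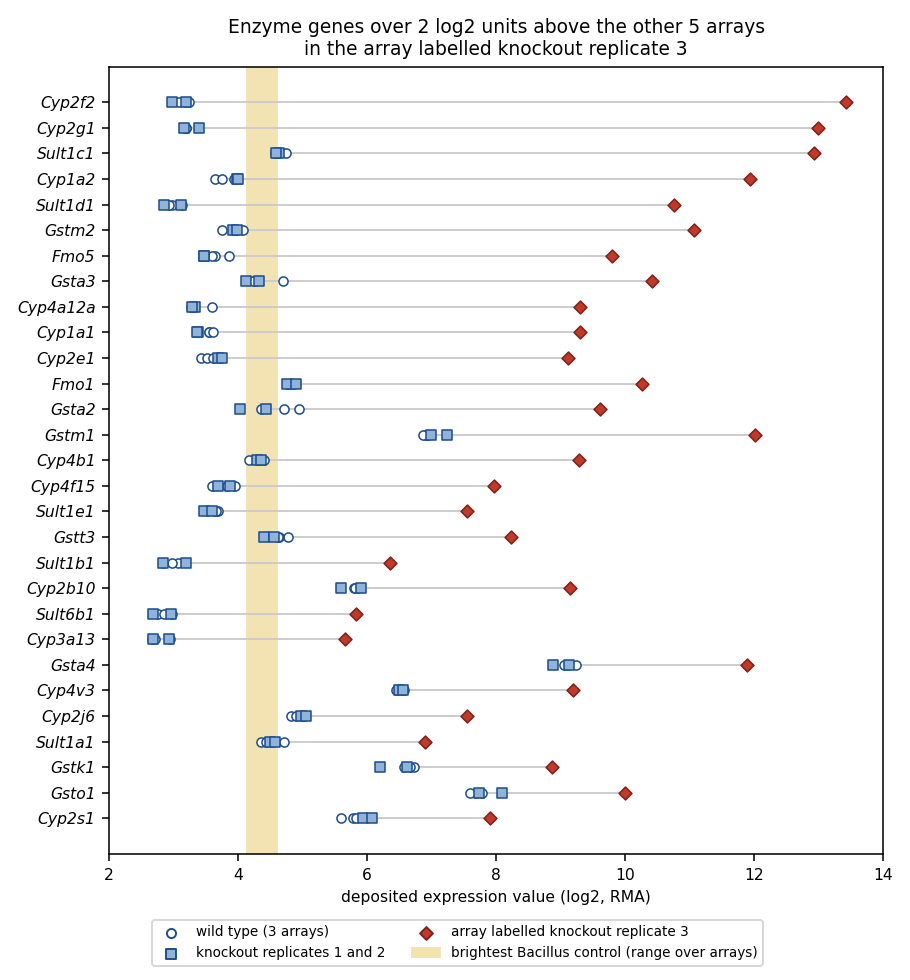
Deposited log2 values (horizontal axis) of the 29 member genes past the limit of 2 log2 units in the library labelled knockout replicate 3 (red diamonds), beside wild type (open circles) and knockout replicates 1 and 2 (blue squares). The shaded band spans the brightest Bacillus control of the 6 arrays, and 14 of the genes lie below their own array's control in all 5 retina arrays.

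Sulfotransferases of the Sult1 branch were among the largest differences. Sult1c1, which sulfates phenolic compounds, read 4.57, 4.75 and 4.60 in wild type, 4.63 and 4.59 in knockout replicates 1 and 2, against 12.93 in the library labelled knockout replicate 3, an 8.30 log2 difference. Sult1d1, which sulfates catecholamines, read 2.98, 3.14 and 2.93, then 3.11 and 2.85, then 10.75 (at least 85.7-fold), and its other probe set differed by 7.20. The oestrogen sulfotransferase Sult1e1 read 7.55 against 3.60 ± 0.08 (SD, n = 5), Sult1b1 read 6.35 against 2.98 ± 0.15, and Sult1a1, which sulfates simple phenols, read 6.90 against 4.51 ± 0.14. The exception in the branch was Sult1c2, at -0.02. Outside it, Sult6b1 read 5.83 against 2.85 ± 0.13 (SD, n = 5), from a probe set of the kind that can bind transcripts of other genes. Sult4a1, a sulfotransferase of brain, read 8.33, 8.60 and 8.77, then 8.55 and 8.44, then 8.87. Its sign turned with the probe set, at 0.34 for the brighter and -0.62 for the dimmer.

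Among the member families, glutathione S-transferases were best seen in retina: 14 of 20 (70%) lay above the floor on all 5 retina arrays, against 30 of all 101 members. That share is near the 72.0% of all genes. In the library labelled knockout replicate 3, 8 of the 20 lay past the limit and the family median was 1.66. Gstm2 read 3.76, 3.98 and 4.07 in wild type, 3.91 and 3.98 in knockout replicates 1 and 2, and 11.07 there, while its neighbour Gstm1 read 6.95, 6.89 and 6.86, then 7.23 and 6.98, then 12.02. All 4 Gstm1 probe sets lay past the limit, at 2.18 to 5.03, but mu-class genes are close in sequence, and how much signal they share on these probes is uncertain. Gsta3 read 4.26, 4.70 and 4.22, then 4.13 and 4.33, then 10.41, and Gsta2 read 9.62 against 4.49 ± 0.35 (SD, n = 5). Gsta4, which clears the lipid peroxidation product hydroxynonenal, read 9.11, 9.23 and 9.04, then 8.89 and 9.14, then 11.89. Gstt3 (8.23 against 4.60 ± 0.13), mitochondrial and peroxisomal Gstk1 (8.86 against 6.56 ± 0.21) and omega-class Gsto1 (9.999 against 7.78 ± 0.19, each SD, n = 5) complete the 8. The pi-class enzyme Gstp1 did not differ in this way: it read 11.82, 11.79 and 11.93, then 11.68 and 11.96, then 11.71, within the range of the other arrays. Gstt1 likewise read 8.23 against 8.26 ± 0.09 (SD, n = 5). Gstz1, the maleylacetoacetate isomerase of tyrosine breakdown, lay at 1.42 and Gstm5 at 1.75, both under the limit.

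Of the flavin monooxygenases, which oxidise nitrogen and sulfur in drugs, 2 of 4 lay past the limit. Fmo1 read 4.87, 4.76 and 4.79 in wild type, 4.76 and 4.90 in knockout replicates 1 and 2, against 10.27 in the library labelled knockout replicate 3. Fmo5 read 3.64, 3.85 and 3.59, then 3.47 and 3.47, then 9.79 (at least 44.1-fold), with its other probe sets at 3.65 and 4.52. Fmo2, the lung form, depended on the probe set: the brightest lay at 0.48, others at 4.54, 3.84, 0.77 and 0.35. Fmo4 lay at 0.02. Around the limit of 2 units, Cyp2s1 (2.06) and Gsto1 (2.22) were just inside and Cyp2j9 (1.77) and Gstm5 (1.75) just outside. Of the 29 genes past it, 8 had other probe sets, and all of these also lay past it.

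Neighbouring genes of one cluster often differed from each other. In the gene order of GRCm38.p6, used only for order, 99 members were placed, and 10 clusters held at least 4 members with at most 10 other protein-coding genes between them. These held 66 members, 7 had at least 1 member past the limit and 3 had none. In the cluster of Cyp2g1, the genes in order were Cyp2s1 (2.06), Cyp2b10 (3.35), Cyp2b13 (0.01), Cyp2b9 (0.00), Cyp2b19 (0.64), Cyp2g1 (9.77), Cyp2a12 (0.34) and Cyp2f2 (10.29). Among members, Cyp2g1 thus lies between Cyp2b19 and Cyp2a12, both under 1 log2 unit, and Cyp2a12 lies between Cyp2g1 and Cyp2f2. Between Cyp2g1 and Cyp2a12 lie 2 further protein-coding genes that are not members. Their levels are not covered here, so Cyp2a12 does not stand for the whole stretch between Cyp2g1 and Cyp2f2. In the cluster of 8 Ugt2 and 3 Sult1 members, each Ugt2 member lay at 0.05 or below while Sult1b1, Sult1d1 and Sult1e1 lay at 3.37, 7.75 and 3.95. These 8 Ugt2 members read below the floor on all 6 arrays. Between them and Sult1b1 lie 2 protein-coding genes that are not members, whose levels are not covered here. Along the Gstm cluster, Gstm5, Gstm7, Gstm6 and Gstm3 lay at 1.75, 1.62, 0.96 and 0.36 before Gstm2 at 7.13, Gstm1 at 5.03 and Gstm4 at 1.71. Gstm7 depended on the probe set: the other one, brighter on the other 5 arrays (5.79 against 5.67), lay at -0.14. The clusters with none past the limit were those of Cyp2c, Cyp2d and Cyp3a.

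**Figure D3:**
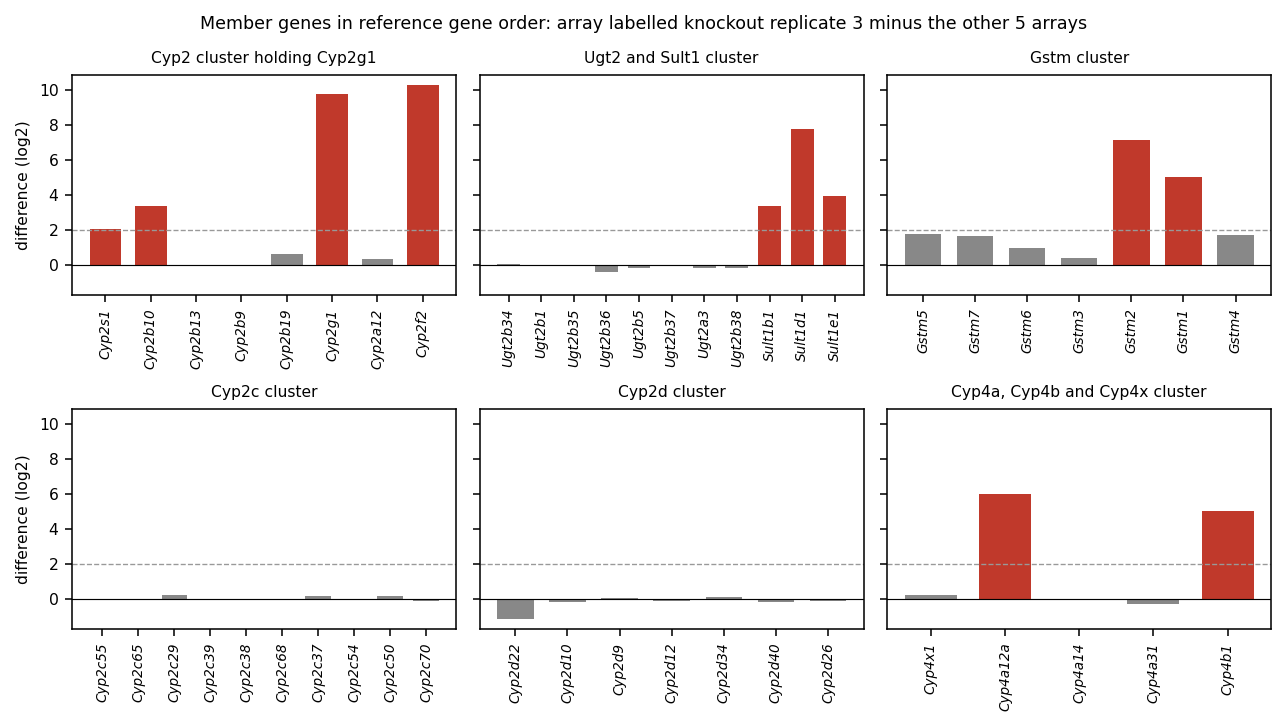
Difference between the library labelled knockout replicate 3 and the other 5 arrays (vertical axis, log2) for member genes of 6 gene clusters, drawn in reference gene order. Red bars lie above the dashed limit of 2 log2 units; Cyp2g1 (9.77) and Cyp2f2 (10.29) stand on either side of Cyp2a12 (0.34), and the Cyp2c and Cyp2d panels have no red bar.

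Genes that work with these enzymes were read from lists with 91 of 99 names measured. In the library labelled knockout replicate 3, 34 of the 91 lay past the limit upward and 2 downward. Over all genes the shares were 7.44% upward and 4.49% downward, which is also the background for each list below. Cytochrome b5 (Cyb5a), an electron donor to P450s, read 12.60 against 8.98 ± 0.08 (SD, n = 5), and the quinone reductase Nqo1 read 10.68 against 5.58 ± 0.22. Of 27 hydrolases and dehydrogenases, 14 lay above, led by the carbonyl reductase Cbr2 (13.55 against 3.81 ± 0.11), the carboxylesterase Ces1d (11.52 against 3.21 ± 0.16) and the alcohol dehydrogenase Adh1 (12.36 against 4.56 ± 0.09). Among 10 genes of cofactor supply, 4 lay above. Papss2, which makes the sulfate donor used by sulfotransferases, read 11.32 against 5.70 ± 0.17 (SD, n = 5), while Ugdh, which makes the glucuronate donor, differed by 2.31, and the glutathione synthesis genes Gclc and Gclm by 2.31 and 2.11. Of 14 other transferases 5 lay above, among them Inmt (7.59), Mgst1 (6.00) and Tst (5.71). Of 15 transporters, Slco1a5 (5.34), Abcc4 (5.11) and Abcc3 (4.67) lay above and Slco4a1 lay below (-3.46). Of 18 sensors and regulators, 5 lay above, led by Foxa1 (4.73) and Cebpb (3.95), and also Nfe2l2 (2.61), which drives antioxidant response elements.

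**Figure D4:**
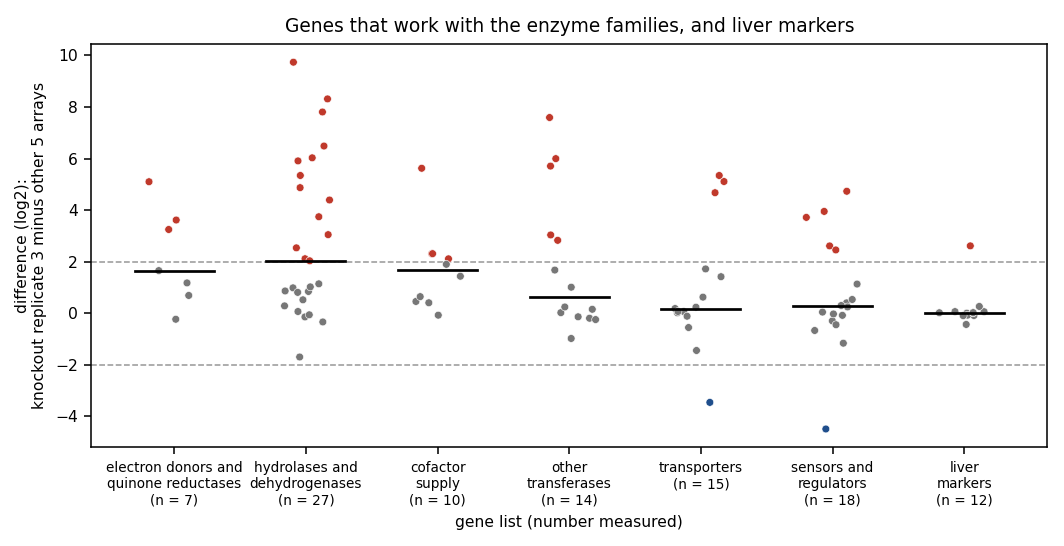
Difference between the library labelled knockout replicate 3 and the other 5 arrays (vertical axis, log2) for genes that work with the enzyme families and for liver markers, by list. Each point is 1 gene, black bars are medians, and dashed lines mark 2 log2 units. Of 27 hydrolases and dehydrogenases 14 lie above the upper line, against 1 of 12 liver markers and 7.44% of all genes.

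Wild type was then compared with knockout replicates 1 and 2, which asks whether loss of Nxnl2 moves these enzymes in retina. By limma, 0 of the 101 members passed an adjusted p of 0.05, where 0.011% of all genes did, and the smallest adjusted p among members was 0.999. At an unadjusted p under 0.05 stood 3 members, 1 higher and 2 lower, which is 2.97% against 3.45% of all genes. Changes ran from -0.44 to 0.29, with a median of 0.01 over members and 0.00 over all genes, and 53 of 101 lay above 0. On all 5 arrays 59 members read below the floor and 30 above it, where 72.0% of all genes read above it. For members below the floor, a change near 0 can mean that no signal was detected in either group. The groups did not overlap for 10 members with knockout higher and 6 with knockout lower, that is 9.90% and 5.94%, against 9.19% and 7.27% of all genes. These shares lie near the background.

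The 3 members with an unadjusted p under 0.05 were Cyp2s1, Gsta2 and Cyp1a1. Cyp2s1 read 5.78, 5.60 and 5.83 in wild type and 5.94 and 6.07 in knockout replicates 1 and 2, so the groups did not overlap, with a log2 change of 0.27 (95% interval 0.03 to 0.51, limma adjusted p = 0.999). Gsta2 read 4.71, 4.94 and 4.36 in wild type and 4.02 and 4.44 in knockout, which overlap, with a change of -0.44 (-0.85 to -0.03, limma adjusted p = 0.999). It had the widest range of all members over the 5 arrays, 0.914 log2 units. Summed pigment epithelium markers, at 13.31, 13.85 and 13.11 in wild type and 12.91 and 13.36 in knockout, were likewise highest in wild-type replicate 2 and lowest in knockout replicate 1. Summed lens markers, at 11.26, 14.07 and 11.19 in wild type and 11.07 and 11.40 in knockout, had the same highest and lowest array, and all 9 lens genes had a change below 0, with a median of -0.90. The part of both marker lists in the Gsta2 values was not tested. Cyp1a1 lay at -0.20 (-0.40 to -0.00), with all 5 values below the floor.

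Other members with a small unadjusted p, of which a selection follows, did not pass either. Among them, Cyp2r1 lay at 0.20 (SE 0.11) and Gstt3 at -0.19 (SE 0.10). The fatty acid hydroxylase gene Cyp4f16 lay at 0.21 (SE 0.10), Fmo2 at 0.25 (SE 0.12), Fmo5 at -0.22 (SE 0.11), Cyp2e1 at 0.20 (SE 0.10), Gstm1 at 0.21 (SE 0.10), Gstk1 at -0.25 (SE 0.13), Gsto1 at 0.23 (SE 0.12) and Gsto2 at 0.29 (SE 0.16). Of these, Cyp2r1, Fmo5, Cyp2e1 and Gsto2 lay below the floor on all 5 arrays, where signal may not be detected. Gsto1 and Gsto2 lie side by side in the genome, and of the 5 arrays both were highest in knockout replicate 2, at 8.09 and 4.24. The Gsto2 value was under the floor of that array, 4.41. For 4 members with a known role in eye or neurons the intervals are given. They ran from -0.28 to 0.23 for Gstp1, -0.25 to 0.17 for Cyp1b1, -0.22 to 0.21 for Cyp4v3 and -0.37 to 0.23 for Sult4a1. A change of 1 log2 unit lies outside each, for these arrays and the 1 probe set used per gene. The spread behind these intervals could be purely technical, so they do not bound an effect over animals. Of the 91 genes that work with the enzymes, 0 passed in the same comparison (limma) and 7 had an unadjusted p under 0.05, 3 higher and 4 lower, which is 7.69% against 3.45% of all genes. The smallest adjusted p among them was 0.578, for Ahrr, which lay at 0.76.

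**Figure D5:**
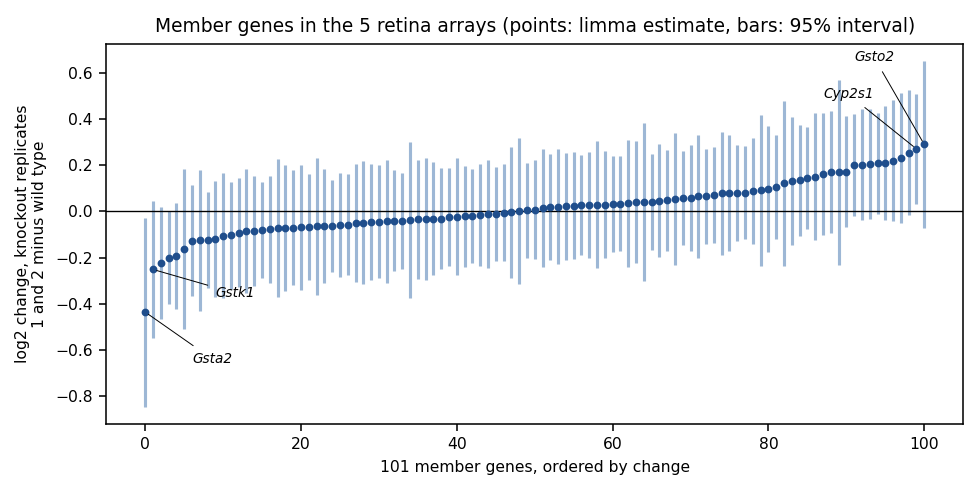
Log2 change of knockout replicates 1 and 2 against wild type (vertical axis) for the 101 member genes, ordered by change (horizontal axis). Points are limma estimates and bars 95% intervals; all changes lie between -0.44 and 0.29, and no gene passed an adjusted p of 0.05.

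With all 6 arrays as labelled, 0 of 101 members and 0% of all genes passed an adjusted p of 0.05 by limma, and 0 members had an unadjusted p under 0.05, against 0.726% of all genes. The largest mean differences were those of Cyp2f2, at 3.36 (SE 2.95), Cyp2g1, at 3.33 (SE 2.77), and Cyp1a2, at 2.86 (SE 2.27), each with an adjusted p = 0.745. Without the library labelled knockout replicate 3 these genes lay at -0.08, 0.09 and 0.21. The members' median was 0.12 with that array and 0.01 without it.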

How the data were processed

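Retinal RNA was hybridised as biotin-labelled cRNA to Affymetrix arrays, per the labels' protocols. The authors deposited log2 values, for which the submitters' processing notes name RMA, a method that subtracts background, equalises arrays and combines probes. Version and chip definition were not given in the sources used here. Array medians were nearly equal (5.77 to 5.80), so shifts in total RNA are hidden. Precision is limited by the number of arrays.

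Of 45101 probe sets, 64 controls were left out and 34945 name exactly 1 gene in the platform annotation. Per gene, the brightest probe set over 6 arrays was used. For 7 members it is of a kind that can bind several transcripts. Genotypes were tested with limma 3.58.1 (lmFit, eBayes, R 4.3.3), two-sided, over 18193 genes with Benjamini-Hochberg adjustment, a procedure tested on simulated data. Folds given as "at least" set each value under the array's brightest Bacillus control to that control. Summed levels are the log2 of summed linear values. Gene order and promoters came from RefSeq (GRCm38.p6).

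Named genes are, per family, up to 6 members furthest above 2 log2 units, the 3 with the smallest p, those in nasal and eye enzyme lists, and the 3 partner genes per list with the largest difference. Others were named after their values were seen. Members and lists were chosen with earlier results of these data known. Deviations of same-numbered arrays correlated at -0.07 and 0.08, so the numbers were not taken to pair samples. Figures used matplotlib 3.10.9.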

Additional observations from a re-analysis of the deposited data

How the results depend on the processing

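By limma, no member passed in any alternative run for either comparison of genotypes, also at an adjusted p threshold of 0.1. The 2 genes called over all genes in the 5 arrays became 1 with the mean of all probe sets of a gene, and 1 to 8 with an array left out. In the 6 arrays the 0 genes became 2 with array quality weights, and 0 to 2 with an array left out. With the replicate block, 0 members were called in both comparisons, and 3 and 0 genes. Removing dim probe sets left 35 members, of which 16 lay above the limit in the library labelled knockout replicate 3, with a median difference of 1.71 in place of 0.20. That median was 0.24 with wild type alone as reference, and 1.76 among genes above the Bacillus control on at least 1 array, an alternative chosen after seeing the data. Both filters count the library labelled knockout replicate 3 itself, so they can keep members that are high only there. The larger medians are therefore no support for a shift of the set. How much of them comes from the filters was not tested. With an array left out it ran from 0.19 to 0.23, and 28 to 29 members lay above the limit. A limit of 1 log2 unit gave 37 members above and 3 below, and 3 units gave 20 and 0. The members' median change in the 5 arrays ran from -0.029 to 0.050 with an array left out. Changes near 0 turned sign: Cyp1b1 with the mean (0.0088) or the most variable probe set (0.18), Sult4a1 with the most variable probe set (0.045) or the replicate block (0.028), Gstp1 with the replicate block (0.019), and Cyp4v3 with quantile normalization (0.0093) or median centring (9.0e-04). With an array left out they ran from -0.161 to 0.117 for Gstp1, -0.044 to 0.023 for Cyp4v3 and -0.189 to 0.028 for Sult4a1. The cause of the other moves was not tested.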
